A study of Caenorhabditis elegans with 2 samples.

Results

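The genes described here encode the vacuolar proton pump (V-ATPase), aspartyl and cathepsin B-like proteases and lysosomal proteins of the nematode Caenorhabditis elegans. They were chosen by name from the annotation, as all protein-coding genes with the prefix vha-, asp- or cpr- together with lmp-1, cup-5, laat-1, scav-3 and nuc-1. This gave 50 of 19973 protein-coding genes on the nuclear chromosomes. Of these 20 encode pump subunits, 17 aspartyl proteases, 8 cathepsin B-like cysteine proteases and 5 lysosomal proteins of other kinds. The proteases were taken by prefix alone, and whether each acts in the lysosome was not tested. Binding of CRH-2, a bZIP transcription factor of the CREB family, was mapped with ChIP-seq, which sequences the DNA recovered with a protein by an antibody, in whole L2 larvae of both sexes pooled. The worms were of strain OP425, which carries the unc-119(tm4063) allele on chromosome III and the insertion wgIs425, and express the product of crh-2 (C27D6.4) with GFP-FLAG at its C-terminus. There was 1 group of 2 biological replicates and no second condition, so the comparisons are between classes of genes within these libraries. Whole animals were used, so the cell types in which a promoter was bound cannot be told apart.

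Lysosomes digest proteins, lipids and nucleic acids at acid pH. The V-ATPase acidifies them: its peripheral V1 sector hydrolyses ATP in the cytosol and its membrane-embedded V0 sector carries protons across the membrane. Cathepsins are the main lysosomal proteases and work best in this acid lumen, and in the worm many aspartyl and cathepsin B-like proteases are made in the intestine, whose cells are rich in lysosome-related gut granules. Pump subunits also serve other acid compartments and, in the worm, the excretory cell and the epidermis.

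CRH-2 peaks lay at a larger share of pump genes and cathepsin B-like genes than of aspartyl protease genes, although with so few genes the intervals of these shares overlap. A gene counted as bound when a replicated peak (one that passed the authors' irreproducible discovery rate procedure) had its summit within its promoter window, which ran from 1000 bp before a transcript's 5′ end to 250 bp after it, and 19.3% of all protein-coding genes were bound by this measure (3857 of 19973). Of the 50 genes, 22 were bound (44.0%). The pump had 12 of 20 subunit genes bound (60.0%, Wilson 95% interval 38.7 to 78.1). The cathepsin B-like genes had 5 of 8 bound (62.5%, 30.6 to 86.3), and the aspartyl protease genes had 3 of 17 (17.6%, 6.19 to 41.0), a share close to that of all genes. Both protease families together had 8 of 25 (32%, 17.2 to 51.6). Of the genes for lysosomal proteins of other kinds, lmp-1 and scav-3 were bound, 2 of 5 (40%). These intervals cover counting error alone and overlap between all of these classes.

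The counts were nearly the same in each replicate. When each replicate was represented by its own 5735 strongest regions, as many as there are replicated peaks, 18.8% of all genes were bound in replicate 1 and 18.9% in replicate 2. The pump had 12 of 20 in replicate 1 and 14 of 20 in replicate 2, where vha-11 and vha-20 were added. The proteases had 8 of 25 in replicate 1 and 7 of 25 in replicate 2, where cpr-6 was lost. Of the 22 bound members 21 were bound in both replicates taken alone (95.5%), and over all 3857 bound genes the share was 81.5%. Both replicates went into the replicated list, so these counts repeat part of it rather than test it.

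**Figure D1:**
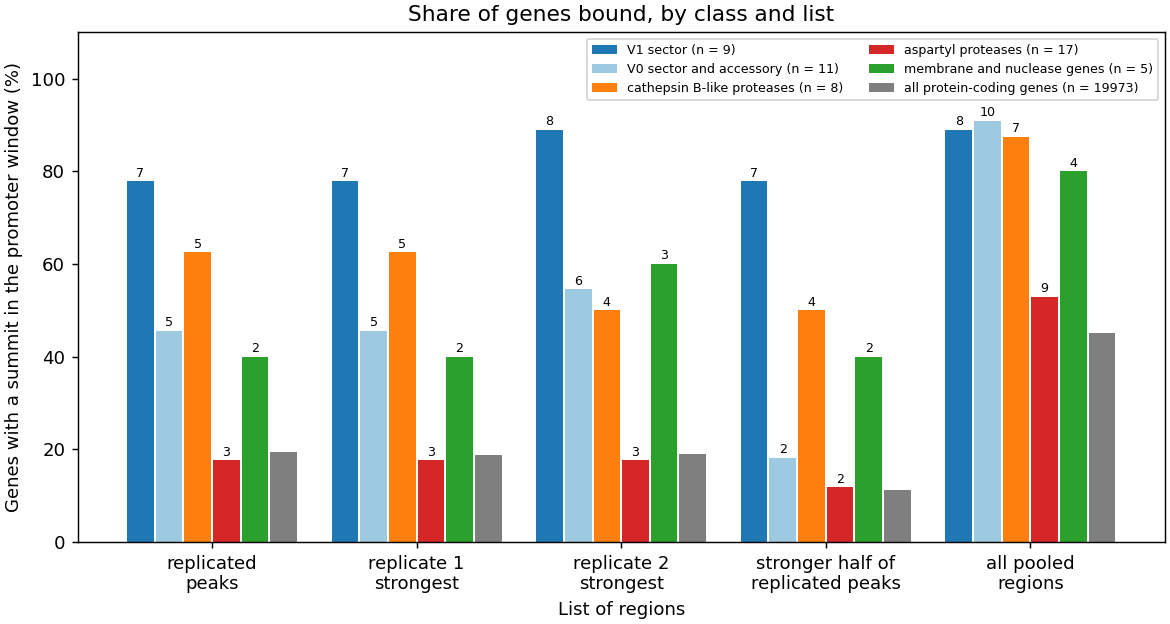
Share of genes with a summit in the promoter window (y axis, percent) for the V1 and V0 sectors of the pump, both protease families, the membrane and nuclease genes and all protein-coding genes, by the list of regions used (x axis). Numbers above the bars are genes bound, and V1 subunits had the highest share in the replicated peaks, 7 of 9, against 3 of 17 aspartyl proteases.

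Within the pump, the V1 sector had more bound genes and a higher median signal than V0, although the intervals of the shares overlap. Of the 9 V1 genes 7 were bound (77.8%, Wilson interval 45.3 to 93.7). For V0 and its accessory subunits it was 5 of 11 (45.5%, 21.3 to 72.0). All 7 bound V1 genes remained among the 2867 peaks with the highest signal, and 2 of the 5 bound V0 genes did, where 11.2% of all genes were bound. The median pooled signal at bound genes, as the authors' peak caller gave it, was 225 for V1, 89.8 for V0 and 116 for all bound genes. To compare the replicates, the signal of each was divided by its own median over the replicated peaks, so that 1 is a typical peak. The median of this relative signal at bound V1 genes was 2.28 in replicate 1 and 1.94 in replicate 2, at bound V0 genes 0.939 and 0.791, and over all bound genes 1.09 and 1.11. The V1 median was above that of V0 and of all bound genes in both replicates, though the V0 gene vha-1 had one of the strongest peaks. The V0 set also leaves out the bound a-subunit gene unc-32, which lacks the vha- prefix. The pooled signal of unc-32, 294, was above both sector medians, so counting it would raise the V0 share and median. At all 22 bound members the relative signal was within 2-fold between replicates, as at 95.6% of all bound genes measured in both.

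The strongest peak belonged to vha-12, the B subunit of the ATP-hydrolysing head. Its relative signal was 3.78 in replicate 1 and 3.51 in replicate 2, a mean of 3.64 ± 0.192 (SD, n = 2), and its pooled signal of 385 had rank 188 of 5735. The next was vha-8, the E subunit of the stalk, with 3.89 and 2.90 and a mean of 3.40 ± 0.696 (SD, n = 2). The third was vha-1, a proteolipid (c-type) subunit of the V0 ring, with 3.51 and 2.47 and a mean of 2.99 ± 0.731 (SD, n = 2). Both replicates placed all 3 well above a typical peak, and their pooled signals of 385, 365 and 328 compare with at most 197 at a bound protease. The order among them was not the same in both replicates. The 101 bases around each summit are shown because these are the strongest sites of the pump, from the RefSeq copy of the WBcel235 genome (ce11), plus strand, at chrX:4190701-4190801, chrIV:6790583-6790683 and chrIII:9780747-9780847. Capitals mark matches to 7 short motifs described further on, and the windows of vha-12 and vha-1 hold none.
vha-12: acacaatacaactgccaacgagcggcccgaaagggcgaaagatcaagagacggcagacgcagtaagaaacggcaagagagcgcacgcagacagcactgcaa
vha-8: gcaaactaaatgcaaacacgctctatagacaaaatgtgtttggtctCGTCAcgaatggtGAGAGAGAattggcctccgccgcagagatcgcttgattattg
vha-1: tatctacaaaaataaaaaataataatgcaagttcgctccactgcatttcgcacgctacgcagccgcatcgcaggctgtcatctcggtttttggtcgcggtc

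The remaining V1 genes fell into a stronger and a weaker group. vha-13, the catalytic A subunit, had 3.19 in replicate 1 and 2.03 in replicate 2 (mean 2.61 ± 0.820, SD, n = 2). vha-15, an H subunit, had 2.28 and 1.82 (mean 2.05 ± 0.320, SD, n = 2), and vha-14, the D subunit of the central stalk, had 1.93 and 1.94 (mean 1.94 ± 0.00649, SD, n = 2). These 3 lay at or above 1.82 in every measurement. The F subunit gene vha-9 had 1.19 and 1.44 (mean 1.31 ± 0.175, SD, n = 2), and the G subunit gene vha-10 had 1.25 and 0.924 (mean 1.09 ± 0.230, SD, n = 2). Both were near a typical peak. The pooled signals were 285 for vha-13, 225 for vha-15, 211 for vha-14, 139 for vha-9 and 114 for vha-10.

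Of V0, vha-16, the d subunit, had 1.55 and 0.971 in replicates 1 and 2 (mean 1.26 ± 0.407, SD, n = 2). The a subunit exists in several forms, and vha-6, the form of the intestine, had 0.939 and 0.738 (mean 0.839 ± 0.142, SD, n = 2). vha-19, an accessory subunit related to mammalian Ac45, had 0.776 and 0.692 (mean 0.734 ± 0.0591, SD, n = 2), and the small e subunit gene vha-17 had 0.632 and 0.791 (mean 0.712 ± 0.113, SD, n = 2). The last 3 were below a typical peak in both replicates. Pooled signals were 126 for vha-16, 89.8 for vha-6, 73.7 for vha-19 and 71.9 for vha-17. The fourth a-subunit gene, unc-32, does not carry the vha- prefix and is no member. It had a pooled signal of 294, rank 369, with 2.64 and 2.76 (mean 2.70 ± 0.0808, SD, n = 2), above vha-6 in both replicates, while vha-5 and vha-7 were not bound.

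**Figure D2:**
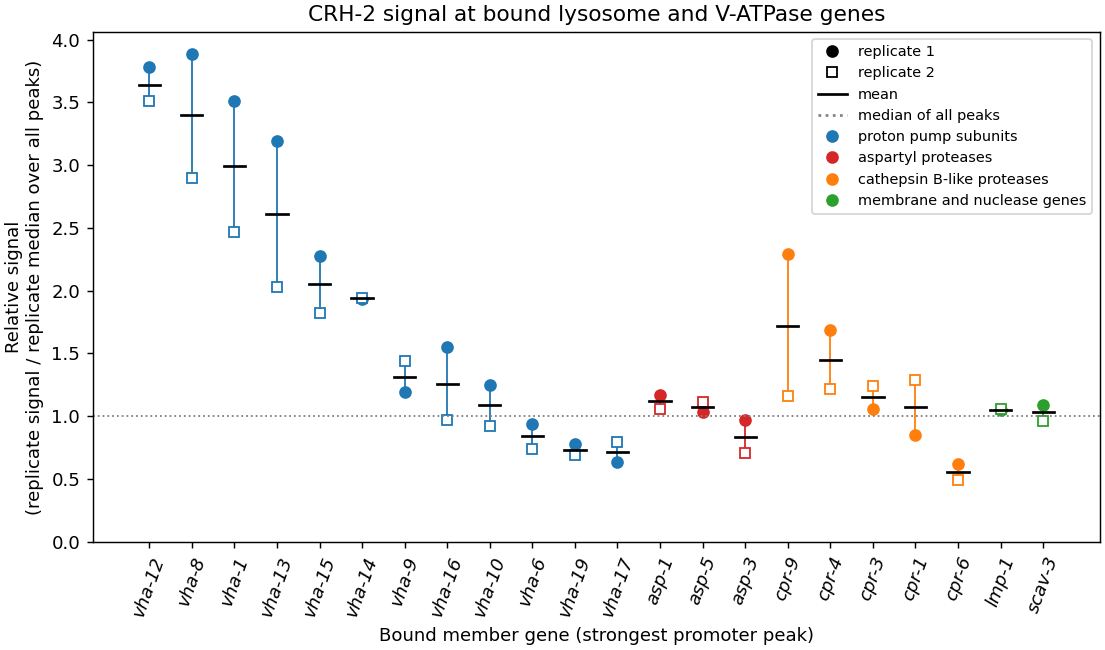
Relative signal (y axis, replicate signal divided by the replicate's median over all replicated peaks) at the strongest promoter peak of each of the 22 bound genes (x axis). Filled circles are replicate 1, open squares replicate 2 and bars their mean, and the dotted line at 1 is the median of all peaks: vha-12, vha-8 and vha-1 are highest, at means of 3.64, 3.40 and 2.99.

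Some of these summits could belong to a neighbouring gene. The summit 441 bp upstream of vha-8 also lay in the window of C17H12.2, that 457 bp upstream of vha-1 in the window of sqv-3, and that 399 bp upstream of vha-17 in the window of F49C12.12. When each promoter peak was given to 1 gene, the one with the nearest 5′ end, these 3 pump genes were lost and 9 of 20 remained bound, while 15.4% of all genes were bound. Of the 12 bound pump genes 3 shared their strongest summit (25%), against 42.1% of all bound genes. The vha-13 summit, 526 bp upstream, lay in an exon of the upstream gene cept-2 on the same strand, which ends 226 bp before vha-13. That of vha-10, 420 bp upstream, lay in an intron of trpp-8, which ends 103 bp before vha-10. Whether such neighbours share a transcript was not tested.

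The 8 pump genes without a replicated summit differed in how far they were from one. In the full pooled list of 30000 regions 18 of 20 pump genes had a region in the window, against 45.0% of all genes. Of the 8 without a replicated summit 6 had one, against 31.8% of all genes without a replicated summit. The strongest of these 6 was at vha-20, the accessory subunit related to the prorenin receptor, at rank 6767 with a signal of 54.0, and it reached rank 4216 in replicate 2 and 13206 in replicate 1. The proteolipid gene vha-2 had a region at rank 6965 and the C subunit gene vha-11 one at rank 8121, which had rank 5407 in replicate 2 and 11765 in replicate 1 by its strongest window region. The other 3 were vha-3 at rank 12304, vha-4, also a proteolipid gene, at rank 15050 and vha-5, an a-subunit gene, at rank 17348. vha-18, a second H-type gene, and vha-7, an a-subunit gene, had no region at all in the window, and their nearest replicated summits were 11111 bp and 8507 bp away.

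Position at the window's edge decided 1 of these genes. A replicated summit lay 1007 bp upstream of vha-3, just outside the window, with a signal of 192 (rank 958) and a relative signal of 2.11 and 1.49 in the replicates. It lay in the window of Y38F2AL.12. The gene vha-11 follows vha-3 on the same strand after 892 bp, and vha-2 follows vha-1 after 400 bp. With a window from 2000 bp upstream to 500 bp downstream vha-2, vha-3 and vha-5 became bound, giving 15 of 20, while 24.5% of all genes were bound. The wider window of vha-2 holds the summit counted for vha-1, so the same peak is counted at both genes. Just inside the window's edge lay lmp-1, with a summit 932 bp upstream.

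**Figure D3:**
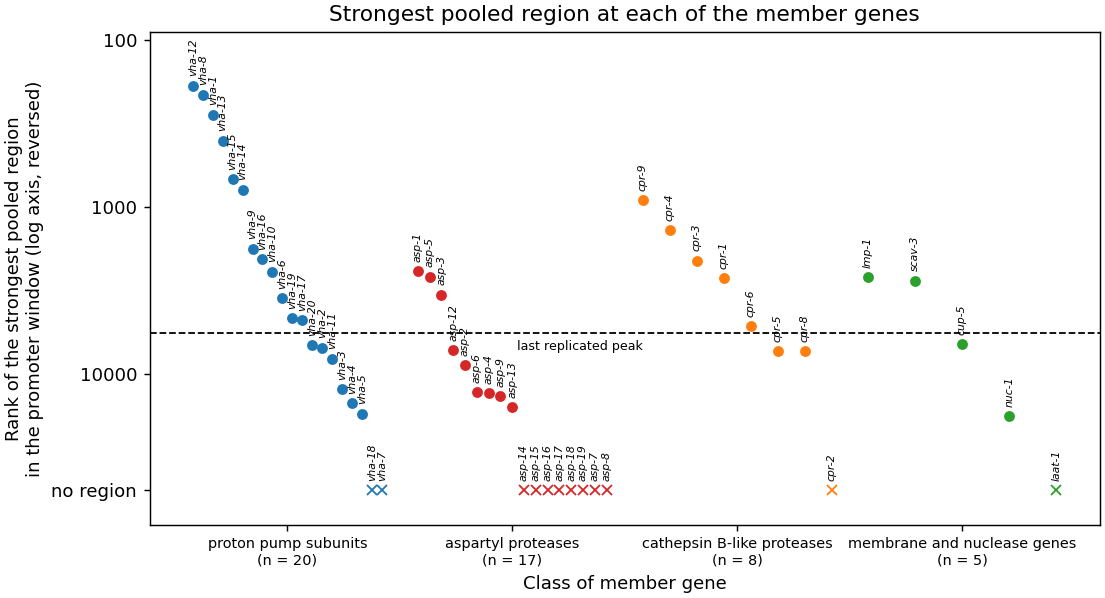
Rank of the strongest pooled region in the promoter window of each of the 50 genes (y axis, log scale, strongest at the top) by class (x axis). Points above the dashed line are replicated peaks (rank 5735 or better), and crosses are genes with no region in the window. A region is absent at 8 of 17 aspartyl proteases, 2 of 20 pump subunits and 10992 of all 19973 protein-coding genes. It is present at 52.9% of aspartyl proteases and 45.0% of all protein-coding genes.

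The cathepsin B-like genes were bound at 5 of 8, with signals around that of a typical peak. By pooled signal cpr-9 led, with 2.29 in replicate 1 and 1.16 in replicate 2 (mean 1.72 ± 0.800, SD, n = 2). In replicate 2 it was below cpr-1, cpr-3 and cpr-4. That summit lay 816 bp upstream, in the window of gcy-33 as well, inside an annotated tRNA gene on the plus strand at chrV:12002176-12002260. Among all 3309 promoter peaks 0.967% had their summit in a tRNA gene. A second summit, 20 bp downstream of the cpr-9 5′ end, was in no other window and had 0.602 and 1.20 (mean 0.90 ± 0.422, SD, n = 2). cpr-4, a secreted cathepsin B homologue, had 1.69 and 1.22 (mean 1.45 ± 0.333, SD, n = 2).

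The gut protease gene cpr-1 had 0.852 and 1.29 (mean 1.07 ± 0.309, SD, n = 2) and cpr-3 had 1.06 and 1.24 (mean 1.15 ± 0.129, SD, n = 2). cpr-6 was the weakest of the 22 bound members, with 0.619 and 0.493 (mean 0.556 ± 0.0890, SD, n = 2) and rank 5183 of 5735. In replicate 2 its region had rank 7612. Pooled signals were 197 for cpr-9, 159 for cpr-4, 125 for cpr-3, 108 for cpr-1 and 67.9 for cpr-6. The unbound cpr-5 and cpr-8 are divergent neighbours, 565 bp apart, and shared both of their pooled regions, at rank 7314 with a signal of 50.5 and at rank 14682 with a signal of 28.3. cpr-2 had none.

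Of the aspartyl proteases, asp-1, asp-5 and asp-3 were bound. asp-1, which is made in the intestine, had 1.17 in replicate 1 and 1.06 in replicate 2 (mean 1.12 ± 0.0763, SD, n = 2), with its summit 849 bp upstream. asp-5 had 1.03 and 1.11 (mean 1.07 ± 0.0556, SD, n = 2) at 201 bp upstream. asp-3, a cathepsin D-type protease, had 0.966 and 0.708 (mean 0.837 ± 0.183, SD, n = 2) at 304 bp upstream. All 3 were near or somewhat below a typical peak, with pooled signals of 114, 109 and 92.8. asp-4, the other well-studied cathepsin D-type gene, had a pooled region at rank 13023, not replicated.

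The other unbound aspartyl protease genes were at low rank or had no region. With asp-4 counted, 6 of the 14 unbound ones had a pooled region, against 31.8% of all genes without a replicated summit. asp-12 had a region at rank 7191 and asp-2 at rank 8885, and asp-6, asp-9 and asp-13 had ranks of 12917, 13550 and 15878. asp-6 and asp-12 are divergent, 272 bp apart. No pooled region lay in the windows of asp-7, asp-8, asp-14, asp-15, asp-16, asp-17, asp-18 and asp-19. asp-15, asp-16 and asp-17 follow each other on chromosome V downstream of asp-1, as do asp-8 with asp-7 and asp-18 with asp-19, and how well reads could be assigned among such related genes was not tested. Of the 25 proteases 20 are on chromosome V, where 13.9% of all 4994 genes were bound and 6 of these 20 (30%).

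Set side by side, bound pump genes had a higher median signal than bound proteases, but not in both sectors or by every way of choosing the peaks. The median log2 relative signal of the 12 pump genes was 0.79 in replicate 1 and 0.70 in replicate 2, and that of the 8 proteases 0.06 and 0.18. The difference was 0.73 and 0.52, a mean of 0.62 ± 0.150 (SD, n = 2) or 1.54-fold. By sector, the median relative signal in replicates 1 and 2 was 2.28 and 1.94 at bound V1 genes. At bound V0 genes, unc-32 left out, it was 0.939 and 0.791, below the 1.04 and 1.13 of bound proteases. In the pooled list 6 of the 12 pump genes lay above every bound protease and 6 within their range. Above every protease were 4 pump genes in replicate 1 and 7 in replicate 2. With replicate 2 alone, peaks and genes included, the difference was -0.02, and with replicate 1 alone it was 0.73. The list of replicate 2 gains vha-11 and vha-20 and loses cpr-6, and their part in the reversal was not tested. With 2 samples of 1 group no test between conditions is possible, and no p-value is given over genes.

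The cathepsin B-like genes differed from the other classes in where the summit lay. At all 12 bound pump genes it was more than 100 bp upstream of the 5′ end, from 121 bp at vha-14 to 526 bp at vha-13, with a median of 325 bp. At 4 of the 5 bound cathepsin B-like genes the strongest summit was within 100 bp, at 87 bp for cpr-1 and cpr-4, 83 bp for cpr-3 and 37 bp for cpr-6. At all 3 bound aspartyl protease genes it was more than 100 bp upstream, with a median of 304 bp, as it was at lmp-1 and scav-3. Over all 3857 bound genes the median was 226 bp upstream and 21.9% lay within 100 bp upstream or downstream of the 5′ end. Worm transcripts are often trans-spliced, which removes the original 5′ end, so these are distances to the annotation and not to the start of transcription. Of the 23 summits at members 18 lay in no annotated gene, 3 in a protein-coding gene and 2 in a non-coding gene alone. The last 2 were in the tRNA gene at cpr-9 and the ncRNA gene C52E4.17 at cpr-1. No shares over all promoter peaks are given beside these counts, so whether they are usual was not tested.

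**Figure D4:**
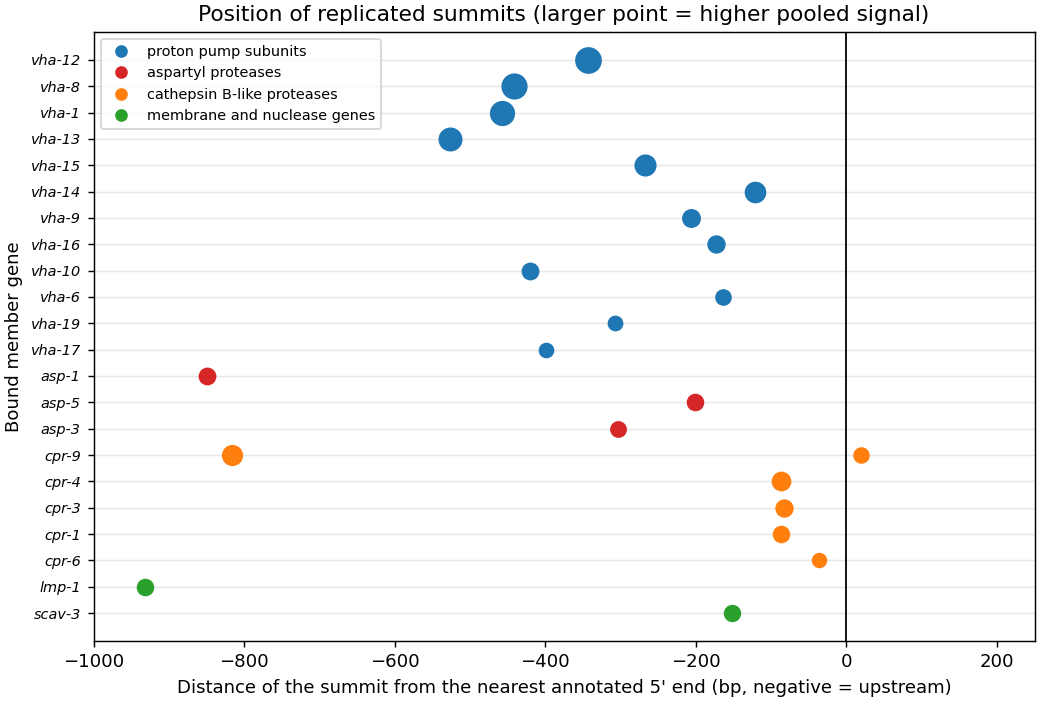
Distance of each replicated summit from the nearest annotated 5′ end of the gene (x axis, bp, negative upstream) for the 22 bound genes (y axis), with larger points for higher pooled signal. Pump summits lie from 526 to 121 bp upstream, while 4 of 5 cathepsin B-like genes have their strongest summit within 100 bp.

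A GATA-type sequence lay near most protease summits and near 1 pump summit. Intestinal genes of the worm are widely controlled by GATA factors, of which ELT-2 is the best known, and these recognise TGATAA. Within 50 bp of the summit, on either strand, TGATAA occurred at 7 of 9 protease peaks (77.8%), 1 of 12 pump peaks (8.33%) and 16.5% of all 3309 promoter peaks. The 7 peaks belonged to asp-1, asp-5, cpr-1, cpr-3, cpr-4, cpr-6 and cpr-9, at cpr-9 to the second summit, and the pump peak was that of the intestinal subunit gene vha-6. In windows of the same length 300 bp to lower or higher coordinates, 1 of 9 protease peaks held it on each side, and 1 and 2 of 12 pump peaks, against 9.94% and 9.82% of all promoter peaks. Within 25 bp it was at 4 of 9 protease peaks against 8.85% of all, and within 100 bp at 8 of 9, with asp-3 added, against 27.0%. The pump stayed at 1 of 12 with each of these 3 widths.

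Unbound proteases held the sequence as well. In the whole window around the outermost 5′ end, TGATAA was present in the promoters of all 8 bound and all 17 unbound proteases, with a mean of 4.0 sites in bound and 2.12 in unbound ones. Among all genes it was in 74.8% of bound and 72.9% of unbound windows, with means of 1.53 and 1.44. Of the bound pump genes 9 of 12 had it somewhere in the window, with a mean of 1.5 sites, and of the unbound ones 7 of 8, with a mean of 2.0. Median GC content within 50 bp of the summit was 42.6% for protease peaks, 50.5% for pump peaks and 43.6% for all promoter peaks. The part of base composition in these counts was not tested.

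**Figure D5:**
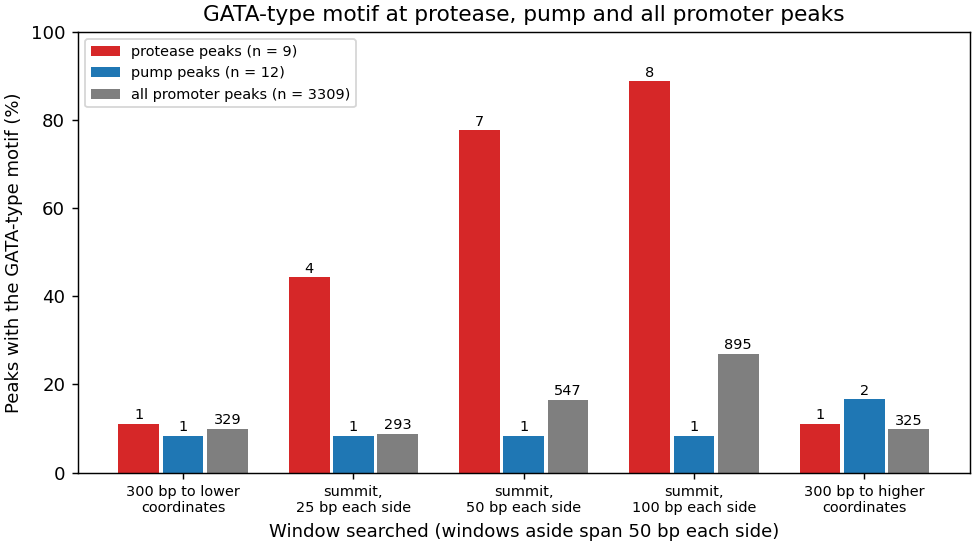
Share of peaks (y axis, percent) with the GATA-type motif TGATAA on either strand in windows at the summit and 300 bp to each side (x axis), for 9 protease, 12 pump and 3309 promoter peaks; numbers above the bars are peaks. Protease peaks hold it at 7 of 9 summits within 50 bp and at 1 of 9 on each side.

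The 101 bases around protease summits are shown because they carry this sequence, with the cpr-9 summit in the tRNA gene for contrast, from the same RefSeq genome, plus strand, in the order in which their positions are given. The first 3 are the strongest protease summits by pooled signal, at chrV:12002187-12002287, chrV:6614537-6614637 and chrV:15298733-15298833. The other protease summits with TGATAA and that of vha-6 were chosen for it after the counts were known, and lie at chrV:12003023-12003123, chrV:11975414-11975514, chrV:19051551-19051651, chrV:8272134-8272234, chrX:6607120-6607220 and chrII:11438566-11438666. Capitals mark matches to any of the 7 motifs, which appear as TTATCA for TGATAA on the minus strand.
cpr-9 upstream: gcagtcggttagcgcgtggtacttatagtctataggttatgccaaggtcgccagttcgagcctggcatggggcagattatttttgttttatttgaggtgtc
cpr-4: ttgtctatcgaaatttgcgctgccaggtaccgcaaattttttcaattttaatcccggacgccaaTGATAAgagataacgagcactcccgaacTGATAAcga
cpr-3: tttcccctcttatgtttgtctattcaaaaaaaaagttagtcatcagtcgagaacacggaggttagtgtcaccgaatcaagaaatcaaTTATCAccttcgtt
cpr-9 proximal: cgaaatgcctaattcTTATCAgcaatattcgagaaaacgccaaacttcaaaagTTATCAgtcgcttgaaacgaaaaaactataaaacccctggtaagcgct
cpr-1: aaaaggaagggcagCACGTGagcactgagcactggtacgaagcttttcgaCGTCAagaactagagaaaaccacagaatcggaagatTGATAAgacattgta
asp-1: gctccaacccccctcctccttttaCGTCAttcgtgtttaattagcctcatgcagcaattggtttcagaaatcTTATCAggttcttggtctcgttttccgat
asp-5: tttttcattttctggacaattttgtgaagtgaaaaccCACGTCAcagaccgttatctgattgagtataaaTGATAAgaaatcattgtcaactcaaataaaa
cpr-6: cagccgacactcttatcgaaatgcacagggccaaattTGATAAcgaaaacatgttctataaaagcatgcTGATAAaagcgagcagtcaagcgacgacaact
vha-6: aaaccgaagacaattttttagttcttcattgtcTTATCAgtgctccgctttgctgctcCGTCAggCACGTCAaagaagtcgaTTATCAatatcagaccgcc

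The short CREB-type site TGACG was about as frequent at these summits as at others. It was within 50 bp of 5 of 23 member summits (21.7%) and of 22.6% of all promoter summits. The 5 were at vha-6, vha-8, asp-1, asp-5 and cpr-1. Counted along the plus strand, the match began at the summit at cpr-1 and 4 bases before it at vha-8. Both of these matches were on the minus strand. The longer TGACGTG, which contains TGACG, was at vha-6 and asp-5, 2 of 23 (8.70% against 3.87%), both with TGATAA in the same window. The palindrome TGACGTCA, which also contains TGACG, was at 0 of 23 (1.51% of all). CACGTG, the E-box, was at cpr-1, 1 of 23 (4.35% against 6.56%). TCACGTGA, which contains it and is the core of the site of HLH-30, the worm relative of the lysosomal regulator TFEB, was at 0 of 23 (0.544% of all). The repeat GAGAGAGA was at 3 of 12 pump peaks, those of vha-8, vha-15 and vha-16 (25%), at 0 of 9 protease peaks and at 5.08% of all promoter peaks. All motifs were searched on both strands. A match is a description of the letters in this window and not a site of a factor.

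The membrane and nuclease genes were near a typical peak or unbound. lmp-1, which encodes a LAMP-type membrane glycoprotein, had 1.05 in replicate 1 and 1.06 in replicate 2 (mean 1.05 ± 0.00482, SD, n = 2). scav-3, related to the mammalian lysosomal receptor LIMP-2, had 1.09 and 0.963 (mean 1.03 ± 0.0930, SD, n = 2), and its summit also lay in the window of Y49E10.21. Their pooled signals were 108 and 105. The mucolipin channel gene cup-5 had a pooled region at rank 6637, the unbound member nearest to the threshold of 5735, and was bound in replicate 2 alone, at rank 4929. nuc-1, the DNase II of the lysosome, had a weak region at rank 18026 in its window, while a replicated summit lay 744 bp downstream of its 5′ end with 1.45 and 1.66 in the replicates (rank 1201). laat-1, the lysine and arginine transporter, had no region in its window.

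Of other lysosomal genes, listed by name, 15 of 43 were bound (34.9%), against 19.3% of all protein-coding genes. The list includes unc-32 and lmp-2, which are relatives of members. Their median relative signal was 1.06 in replicate 1 and 0.966 in replicate 2, near that of all bound genes. The strongest was aagr-2, an acid alpha-glucosidase homologue, with 3.13 in both replicates (mean 3.13 ± 0.00363, SD, n = 2), and then unc-32, followed by aagr-3 with a mean of 2.18 ± 0.268 (SD, n = 2), whose summit was shared with drap-1. Next came spin-4, a Spinster-type transporter whose summit was shared with rsp-3, at 1.79 ± 0.414 (SD, n = 2), ppk-3, the PIKfyve kinase, at 1.55 ± 0.146 (SD, n = 2), and the cathepsin Z gene cpz-2, shared with ifbp-1, at 1.35 ± 0.0996 (SD, n = 2). hlh-30 itself was bound at 2 summits, the stronger with 1.06 and 0.966 (mean 1.01 ± 0.0671, SD, n = 2). Between 0.616 and 0.939 lay lipl-5, aagr-1, ncr-1, lipl-2, cpl-1, the cathepsin L gene, lmp-2, gba-1 and asah-1. TGATAA was within 50 bp of 8 of the 17 summits at these 15 genes (47.1%), against 16.5% of all promoter peaks. Those 8 were at aagr-1, aagr-2, asah-1, cpz-2, gba-1, lipl-2, lipl-5 and ncr-1.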

How the data were processed

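Peak lists of 2 biological replicates were analysed. Per the deposited file lists, the authors made a list of regions for each library and one for the pool, and derived the replicated peaks from these 3 lists with the irreproducible discovery rate procedure. Each library's list also derives from a further file common to both, whose role is not stated, and the labels name a possible control. No aligner or peak caller is given in the sources used here. Signal is the authors' deposited value per region, in a unit that is not stated. It was compared within a list or after division by a replicate's median over the replicated peaks, taking its strongest region with at least 1 bp of overlap. Replicate 1 and replicate 2 had medians of 56.2 and 50.9. The deposited −log10 q-value was 4.07 for all 5735 replicated peaks and was not used to rank them. The deposited summit offset gave summit positions, 1-based. Read depth is unknown, so p-values, intervals and floors that need it are not given, and no control library was analysed, so signal common to open promoters cannot be told apart from binding. Replicates are biological by number alone, and separate cultures are not stated.

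Coordinates on ce11 were matched to WBcel235 with Ensembl annotation release 115, and bases were read from the RefSeq genome of that build. The lists on ce10 were not used. All 5735 replicated peaks were the 5735 strongest of 30000 pooled regions, and 5704 of them overlapped a region in both replicates. The 12 mitochondrial genes were left out. Columns of values without a sample numbered 0. The members, lists and motifs were chosen with earlier results of these data known, so counts are descriptions without a test. All members are named, with every bound gene of the second list and every gene that shares a strongest summit. The assignment of summits and overlaps was tested on simulated data. Alternatives changed the window, the strictness, the replicates, the assignment of peaks to genes, the overlap and the median used. The scripts ran under Python 3.11.15, with matplotlib 3.10.9 for figures, numpy 2.4.6 and scipy 1.17.1 for intervals.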

Additional observations from a re-analysis of the deposited data

How the results depend on the processing

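The counts of bound pump and cathepsin B-like genes stayed within 1.5 times their values under all 10 alternatives, from 9 to 15 and from 4 to 7. Aspartyl proteases went from 3 to 5 both with the 10000 strongest pooled regions, which add asp-2 and asp-12 (27.2% of all genes bound), and when each peak went to its nearest 5′ end, which adds asp-13 and asp-15 (21.2% of all genes bound). Membrane and nuclease genes were 1 with the window of 500 bp upstream to 100 bp downstream, which loses lmp-1, and 4 by the nearest 5′ end, which adds laat-1 and nuc-1. All bound genes numbered 2239 among the 2867 strongest peaks, a shorter list by construction.

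The pump minus protease difference of 0.62 (log2) was 0.37 by the nearest 5′ end, 0.47 in the narrow window and 0.87 at the 2867 strongest peaks. Leaving out 1 replicate gave -0.02 without replicate 1 and 0.73 without replicate 2; at the replicated peaks replicate 2 gave 0.52, and the cause was not tested. TGATAA was at 4 protease peaks within 25 bp, a shorter window, and this width and that of 100 bp were chosen after seeing the data. Relative signals of 20 of 22 members moved by less than their SD when the median was taken over promoter peaks. No paired analysis was possible because there is 1 group. Classes of 5 to 20 genes and 2 replicates limit what these counts can show.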
